A study of Mus musculus with 2 samples.

Results

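A copy of ribosomal RNA repeat sequence, named Rn45s, lies on chromosome 17 of the mouse reference genome GRCm38. The data described here are the methylRAD sites listed in a 10 kb window around it, from position 39840001 to position 39850000 of chromosome 17, and the unit itself was taken to run from about 39843000 to 39848830. This window was chosen by position, with the earlier result that it held many counts known. It held 84 listed positions, of which the undifferentiated library listed 80 and the differentiated library 82, out of 1370254 positions listed in at least 1 library. The levels of the window are therefore given as a description.

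Both libraries came from F9 cells, a mouse embryonal carcinoma line that differentiates when treated with retinoic acid. There was 1 library of undifferentiated F9 cells. The other library came from differentiated F9 cells, collected on day 4 after plating in low attachment dishes with retinoic acid at 1 µM. No genotype or allele separates the groups. The study asked how enhancers of pluripotency genes are regulated in embryonal carcinoma cells. With 1 library per group there was no replicate check. Each difference below is a difference between 2 libraries, and each interval covers counting error only. The intervals treat reads as independent. Amplified reads are not independent molecules and close sites can share reads, so the intervals can be too narrow even for counting error.

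Ribosomal RNA genes lie in tandem arrays on several mouse chromosomes, and RNA polymerase I transcribes each unit into a long precursor that is cut into the 18S, 5.8S and 28S ribosomal RNAs. In a typical cell some copies are transcribed and others are kept silent, and DNA methylation at cytosines followed by guanine is known to mark silent copies. A reference that holds a single copy can gather reads from the many copies of the genome. How far the window did so here is not known. The methylation of a copy and the number of copies that carry it thus cannot be told apart in these counts.

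MethylRAD reads the short fragments, 30 bp here, that the enzyme FspEI releases around methylated cytosines. A site with no methylation gives no fragment. Each listed site has a motif. CCGG contains the CpG dinucleotide, whereas CCAGG and CCTGG, which are reverse complements of each other, place the methylated cytosine outside CpG. The CCGG sites of the whole table summed to 16687588 and 15705436 counts. Where a pair of values is given for the libraries, the undifferentiated library comes first. A level is a count per 1000000 of these CCGG counts. The lowest listed count was 5, so an unlisted site can hold up to 4 counts and is not known to be unmethylated.

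The annotation used here places the gene Rn18s-rs5, a copy of the 18S ribosomal RNA sequence classed as a pseudogene, at positions 39846354 to 39848202 (1849 bp). The long noncoding RNA gene AY036118 runs from 39848112 to 39898385 and so covers the last part of the unit. The unit was divided at the ends of Rn18s-rs5 into a stretch before it (3.354 kb), Rn18s-rs5 itself, and a stretch after it (0.628 kb). No gene of the annotation table overlaps the stretch before Rn18s-rs5.

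The window gave 5547 counts in undifferentiated cells and 12420 in differentiated cells. Its level over all motifs was 332 and 791, a ratio of 2.38 (95% exact binomial interval 2.30 to 2.46). Of all 10 kb windows with a listed count, it had rank 4 by counts among undifferentiated windows and rank 3 among differentiated ones. The median of the 205786 such windows of the undifferentiated library was 60 counts over 3 sites. By number of listed sites the window had ranks 1 and 2.

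The higher level in the differentiated library was set beside other windows with many counts. Of the 2547 windows of 10 kb whose summed count reached 1000, 0.432% were at least 2-fold higher in the differentiated library. The median log2 ratio of these windows was 0.28. The ribosomal RNA window had a log2 ratio of 1.25, and 3 of the 2547 windows had a higher one.

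**Figure D1:**
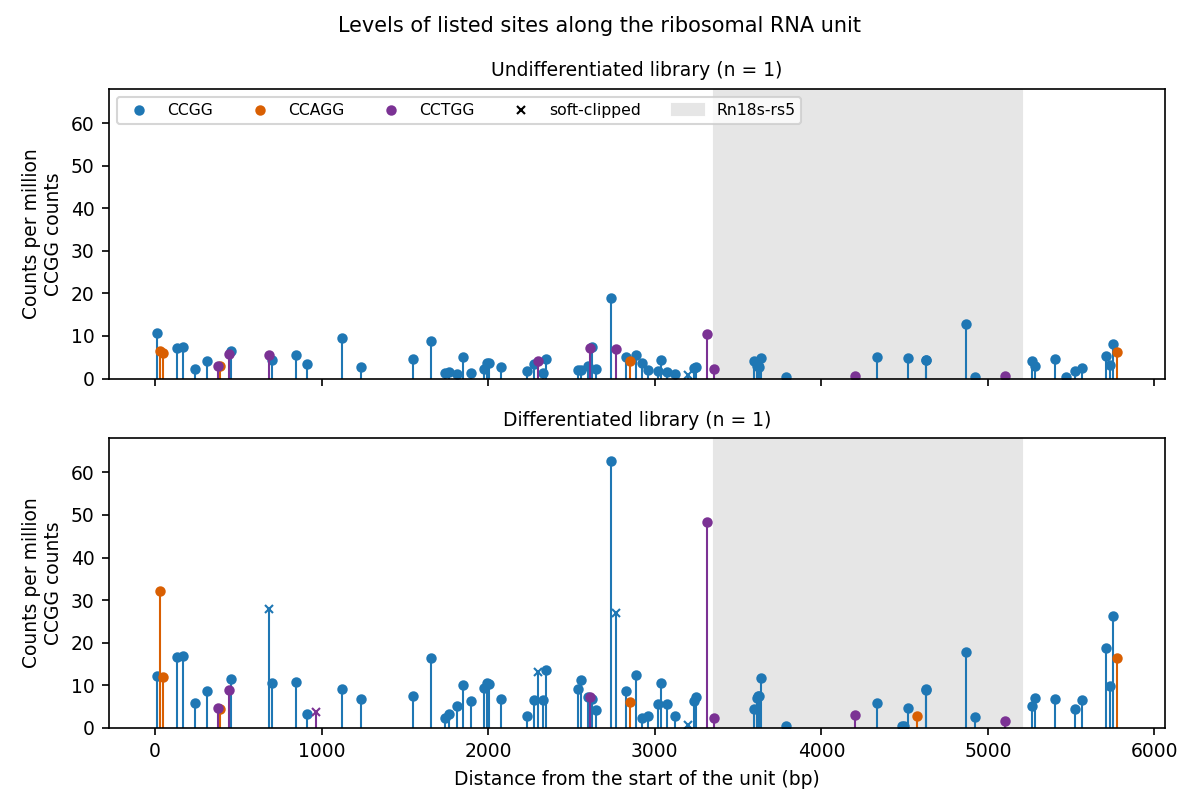
Level of each listed site, in counts per 1000000 CCGG counts, against its distance from the start of the unit in bp, for the undifferentiated (top) and the differentiated library (bottom). Colours give the motif, crosses mark soft-clipped entries and the grey band is Rn18s-rs5. The highest site reaches levels of 19.0 (top) and 62.6 (bottom), and the stretch within Rn18s-rs5 is more sparsely filled than the stretch before it.

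The listed sites ended sharply at the borders of the unit. All but 1 of the 84 positions lay inside it. The exception was a CCGG site at position 39841904, 1096 bp before the unit, with 9 counts in the undifferentiated library and no listing in the differentiated library. The next listed position on that side was 16987 bp away from the unit, with 6 counts in each library. On the other side the nearest was a CCAGG site 5036 bp beyond the unit, with 15 and 9 counts. The first site inside the unit, a CCGG site at position 39843013, had 179 and 192 counts. The last, a CCAGG site at position 39848775, had 104 and 256 counts. A CCGG site 5125 bp beyond the unit had 20 and 30 counts. The first and last sites of the unit thus had several times the counts of the nearest listed sites outside it.

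Sites within 500 kb outside the window were the local background. They lie among the Esp genes, which encode peptides secreted by exocrine glands, Pgk2, a glycolytic enzyme gene of sperm cells, and Crisp1 and Crisp3, which encode secreted cysteine-rich proteins. The undifferentiated library listed 57 such sites, or 0.057 per kb, against 8.0 per kb in the window. The differentiated library listed 74, or 0.074 per kb, against 8.2 per kb. Within 1000 kb outside the window the densities were 0.0875 and 0.0955 sites per kb, so the excess of the window, 140.4 and 110.8 times with the nearer flank, was 91.4 and 85.9 times with the wider one. The median site had 13 counts in the flank and 60.5 in the window for undifferentiated cells. For differentiated cells the medians were 8.5 and 111.5. The highest flank site by summed count, at position 40177566, had 53 and 38 counts. The next, at position 39574334, had 40 and 46 counts, and the third, at position 39458303, had 44 and 37 counts. None of these 3 lay in an annotated gene, and each stayed below the median site of the window in both libraries.

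Flank and window also differed in their ratio between the libraries. CCGG counts of the flank were 728 and 809, a ratio of 1.18 (95% exact binomial interval 1.07 to 1.31). For the window the CCGG counts were 4339 and 10011, a ratio of 2.45 (2.37 to 2.54). With 4 counts given to each unlisted position the flank ratio was 1.16 (1.05 to 1.28), and without 3 positions whose motif differed between the libraries, described below, that of the window was 2.19 (2.11 to 2.27). For CCAGG and CCTGG together the window had 1208 and 2409 counts, a ratio of 2.12 (1.98 to 2.27), or 2.76 (2.55 to 2.98) without the 3 positions. The whole-table ratio of these motifs was 1.54, and scaled to their own total the ratio of the window was 1.38. The flank had 133 and 213 counts at these motifs, a ratio of 1.70 with unlisted positions as 0. Of its 34 such positions, 21 were unlisted in undifferentiated cells and 6 in differentiated cells, so the sums cover different sites. With 4 counts for each unlisted position the flank ratio was 1.16 (0.96 to 1.40), and only 7 positions were listed in both libraries, with 83 and 71 counts. No conclusion was therefore drawn from flank and window at CCAGG and CCTGG sites.

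The ratio was then examined site by site. Of the 84 positions, 3 had a different motif in the 2 libraries and 1 had too few counts, which left 80 for an exact binomial test of each site against the CCGG totals, with Benjamini-Hochberg adjustment over all 1217654 sites tested. This test compares the 2 libraries and not the conditions. At an adjusted p under 0.05 it called 57 of the 80 sites higher in the differentiated library, against 9.01% of all sites, and 0 lower, against 7.06%. Without adjustment 61 were higher and 1 was lower at the same threshold. The other 23 sites were not called. A level at least 2-fold higher was seen at 47 of the 80 sites, against 23.0% of all sites, and a level at least 2-fold lower at 1, against 17.1%.

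Ratios in the table as a whole vary with the depth of the site, so the members were also set beside sites with at least 100 summed counts. Above this floor the members were still deeper, with a median summed count of 197 against 117 in the table for CCGG and 235 against 116 for the other motifs, and deeper sites are called more readily. Over all CCGG sites of the table the median log2 ratio was 0.02, and it was 0.39 for those with at least 100 summed counts. For CCAGG and CCTGG it went the other way, from 0.67 to 0.48. Of the 53 member CCGG sites that reached 100 summed counts, 44 were called higher, against 28.5% of the 43849 such sites in the table. At least 2-fold higher were 35 of the 53, against 14.6%. Their median log2 ratio was 1.27, above that of the 43849 sites. For CCAGG and CCTGG, 5 of 9 member sites of this depth were called higher, against 33.4% of 5749, and 3 of 9 were at least 2-fold higher, against 18.4%. The median log2 ratio was 0.63 for the 9 sites, against the 0.48 of the 5749.

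**Figure D2:**
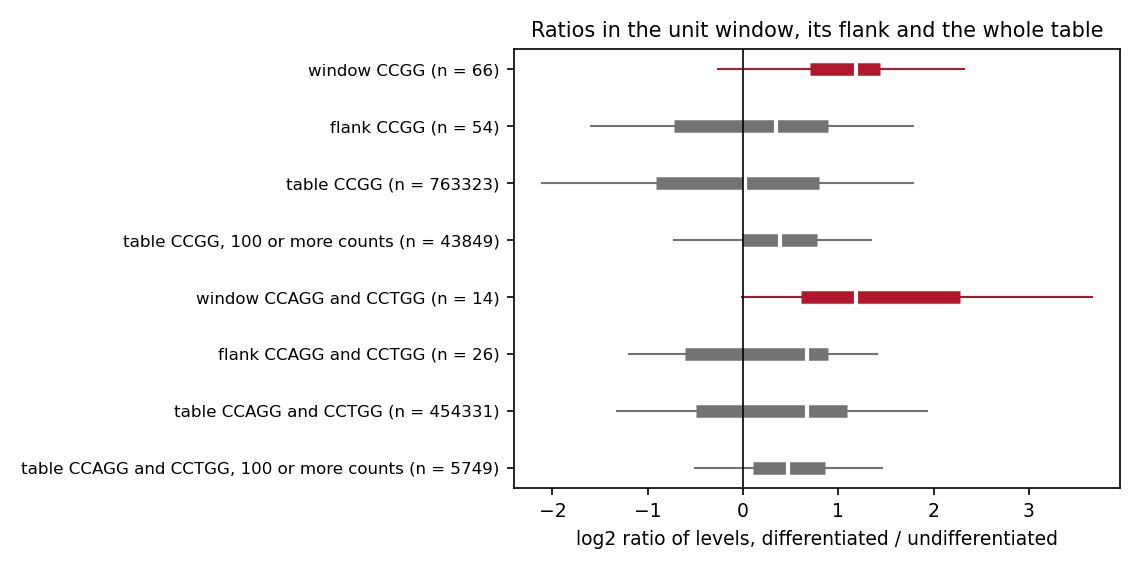
Log2 ratio of site levels, differentiated to undifferentiated, in the window (red), in the flank and in the whole table (grey), by motif. Thick bars run from the first to the third quartile, thin lines from the 5th to the 95th percentile, and the white mark is the median. For CCGG the first quartile of the window, 0.70, lies above the medians of the flank, 0.35, and of the table, 0.02.

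The highest site of the unit in both libraries was a CCGG site at position 39845735, 2735 bp from the unit start and before Rn18s-rs5. Undifferentiated cells gave 317 counts there and differentiated cells 983. Its level was 3.29-fold higher in the differentiated library (95% exact binomial interval 2.90 to 3.75). This site alone gave more counts than the whole flank of 1000 kb in the same motif in the differentiated library.

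The second highest summed count belonged to a CCTGG site at position 39846311, just before the start of Rn18s-rs5. It had 173 and 760 counts, a ratio of 4.67 (3.95 to 5.54). The next listed position, a CCTGG site at 39846355 that is the first within Rn18s-rs5, had 39 and 36 counts, a ratio of 0.98 (0.61 to 1.58). These neighbours of the same motif lay on either side of the annotated gene start and differed in both level and ratio.

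At the start of the unit, the CCAGG site at position 39843030 had the third highest summed count. The site had 109 and 505 counts, a ratio of 4.92 (3.99 to 6.11). The CCGG site at 39843013, 17 bp before it, differed by a ratio of 1.14 (0.92 to 1.41), and the CCAGG site 17 bp after it had 102 and 189 counts. These 3 neighbours thus had ratios of 1.14, 4.92 and 1.97. Farther into this part, the CCGG sites at 39843135 and 39843168 had 121 and 125 counts in undifferentiated cells and 262 and 265 in differentiated cells, with ratios of 2.30 and 2.25.

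The CCGG site at position 39848752, near the end of the unit, had 134 and 413 counts, a ratio of 3.27 (2.69 to 4.01). Within Rn18s-rs5 the highest site was a CCGG site at position 39847871, with 213 and 279 counts and a ratio of 1.39 (1.16 to 1.67). Before Rn18s-rs5, the CCGG site at position 39844658 had 147 and 258 counts, a ratio of 1.86 (1.52 to 2.30). Of the 10 sites of highest summed count, 8 lay before Rn18s-rs5. That stretch also held 54 of the 79 listed sites of the unit in undifferentiated cells and 55 of 82 in differentiated cells. At 2 of the 10 the motif differed between the libraries, and at the others the ratio ranged from 1.39 to 4.92.

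**Figure D3:**
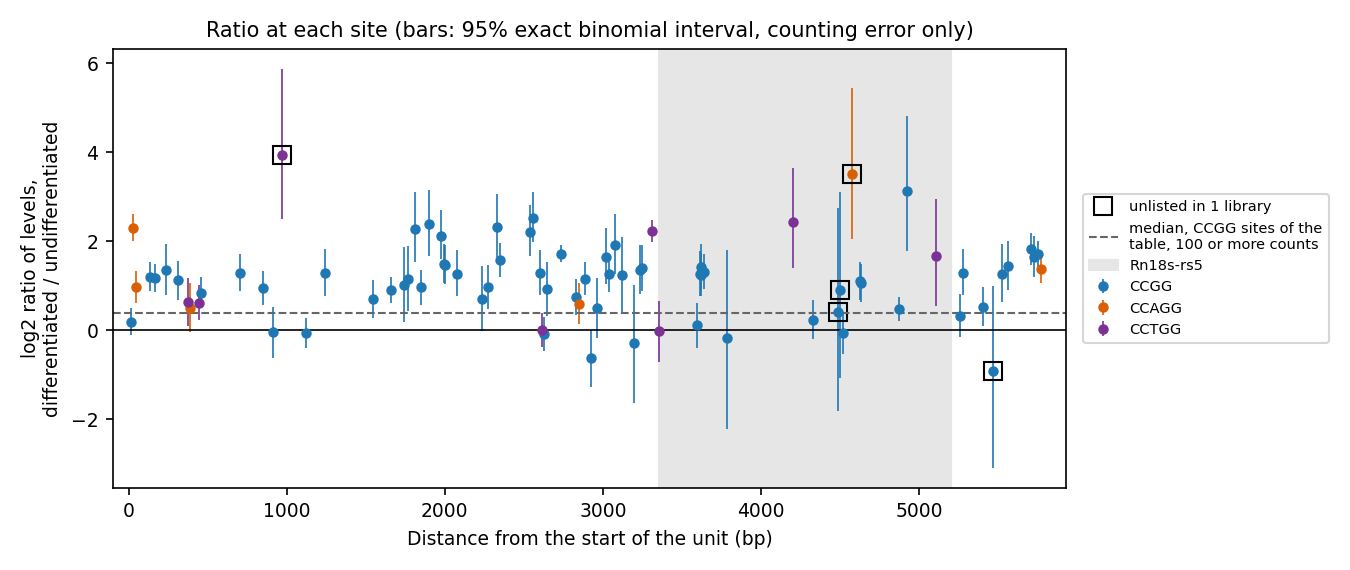
Log2 ratio of the level in the differentiated to that in the undifferentiated library at each site with the same motif in both libraries, or listed in 1 library, against its distance from the start of the unit in bp. Bars are 95% exact binomial intervals for counting error, squares mark sites unlisted in 1 library and given 4 counts there, and the dashed line is the median of CCGG sites of the table with at least 100 summed counts, 0.39. Most sites lie above the line in all 3 stretches.

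The largest ratios were at sites with few counts or none in the undifferentiated library. The CCTGG site at position 39843968 was unlisted there and had 58 counts in the differentiated library, all entered under a soft-clipped alignment. With 4 counts taken for the unlisted value the ratio at this site was 15.4, with a counting interval of 5.70 to 58.4. The CCAGG site at position 39847577, within Rn18s-rs5, was unlisted in undifferentiated cells and had 43 counts in differentiated cells. Taken in the same way its ratio was 11.4, with a counting interval of 4.15 to 43.8. The CCGG site at position 39847923, also within Rn18s-rs5, had 5 and 41 counts, a ratio of 8.71 (3.45 to 28.3).

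Not every site of the unit was higher. Of the 80 tested sites of the window 10 had a lower level in the differentiated library, though none was called. These 10 include the site at position 39841904, which lies outside the unit. The lowest ratio among sites with at least 20 summed counts was at the CCGG site at position 39845925, with 59 and 36 counts, a ratio of 0.65 (0.42 to 1.00). Its neighbour 38 bp before it, at 39845887, had 93 and 195 counts. The soft-clipped CCGG site at position 39846198 had 13 and 10 counts, a ratio of 0.82 (0.32 to 2.02). The CCGG site at position 39845625 had 122 and 108 counts, a ratio of 0.94 (0.72 to 1.23). The CCTGG site 11 bp before it, at 39845614, had 119 and 112 counts. These sites lay in the same stretch as the highest site of the unit.

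The 3 stretches of the unit were compared by their CCGG sums. Before Rn18s-rs5 the counts were 2958 and 7298, a ratio of 2.62 (95% exact binomial interval 2.51 to 2.74). Within Rn18s-rs5 they were 825 and 1384, a ratio of 1.78 (1.63 to 1.95). After it they were 547 and 1329, a ratio of 2.58 (2.34 to 2.86). The interval of Rn18s-rs5 did not overlap those of the other stretches. These intervals leave out the spread between sites, which was wider than counting error. Over 75 sites the standard deviation of the log2 ratio was 0.75, against 0.29 from counting alone. Whether the stretches differ beyond this spread was not tested. The sum before Rn18s-rs5 includes 3 positions labelled CCGG in the differentiated library only, and without them its ratio was 2.24 (2.14 to 2.34). For CCAGG and CCTGG the sums were smaller. Their ratio was 2.83 (2.08 to 3.91) within Rn18s-rs5, from 57 and 152 counts, and 2.03 (1.88 to 2.19) before it, or 2.77 (2.55 to 3.01) without the 3 positions. Among tested sites of all motifs, the test called 39 of 52 higher before Rn18s-rs5, 11 of 17 within it and 7 of 10 after it, and the median log2 ratios were 1.16, 1.11 and 1.34. The 152 counts within Rn18s-rs5 include 43 at the CCAGG site 39847577, unlisted in undifferentiated cells and summed as 0 there. CCTGG alone had 57 and 109 counts within Rn18s-rs5, a ratio of 2.03 (1.46 to 2.85), against 1.69 (1.54 to 1.86) before it, or 2.77 (2.48 to 3.10) without the 3 positions. After Rn18s-rs5 the counts were 104 and 256, all at the single CCAGG site 39848775, a ratio of 2.62 (2.07 to 3.32). Without the 3 positions the intervals of the 3 stretches overlapped for both motifs together.

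Rn18s-rs5 also carried fewer counts for its length. In the undifferentiated library it had 8.11 listed sites and 477 counts per kb, against 16.1 sites and 1194 counts per kb before it and 15.9 sites and 1037 counts per kb after it. In the differentiated library the counts per kb were 831 within, 2773 before and 2524 after. The longest interval between listed positions of the unit, 413 bp from 39846788 to 39847201, also lay within Rn18s-rs5. Its edges were a CCGG site with 6 and 5 counts and a CCTGG site with 9 and 46 counts. Whether fewer motifs in the sequence account for the lower density was not tested here, because the sequence of the unit was not used.

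Bins of 500 bp gave a finer profile of the CCGG ratio. From 500 to 999 bp the counts were 222 and 826, a log2 ratio of 1.98, and from 1000 to 1499 bp they were 205 and 250, a log2 ratio of 0.37. The bin from 2500 to 2999 bp held the most counts, 864 and 2430. From 4000 to 4499 bp, within Rn18s-rs5, the counts were 83 and 104, a log2 ratio of 0.41 with an interval from -0.02 to 0.85. The last bin, which starts at 5500 bp, had 345 and 1032 counts and a log2 ratio of 1.67. The summed CCGG level was higher in the differentiated library in all 12 bins, and only for the bin from 4000 to 4499 bp did the interval include 0. Of these bins, 3 include a position labelled CCGG in the differentiated library only. Without these positions the log2 ratio was 0.89 from 500 to 999 bp (222 and 387 counts), 1.42 in place of 1.78 from 2000 to 2499 bp, and 1.30 in place of 1.58 from 2500 to 2999 bp.

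**Figure D4:**
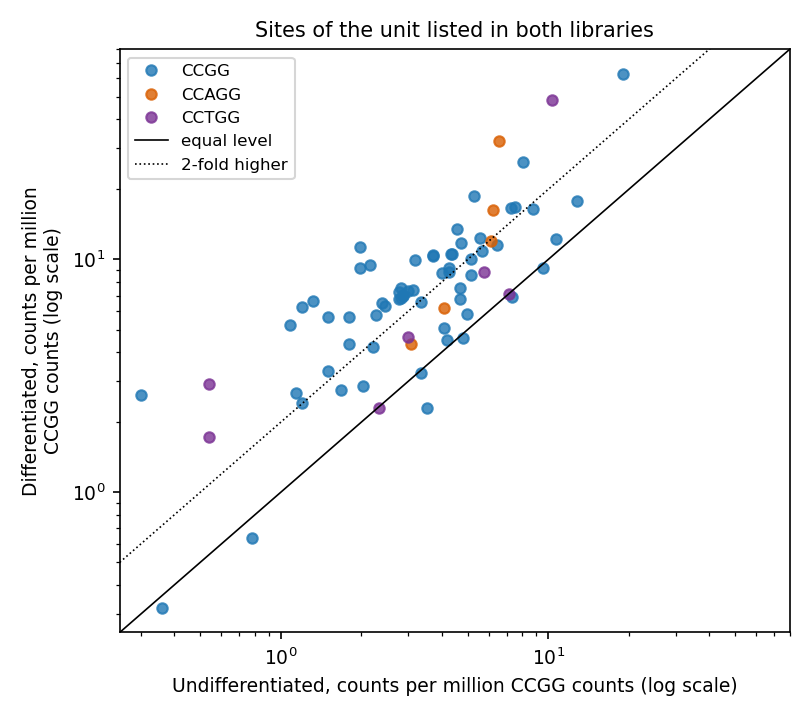
Level of each site of the unit listed in both libraries with the same motif, in counts per 1000000 CCGG counts on log axes, undifferentiated on the horizontal and differentiated on the vertical axis. The solid line marks equal levels and the dotted line a 2-fold higher level in the differentiated library. The 75 sites keep much of their order, and most lie between the lines or above the dotted line.

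The pattern along the unit was shared by the 2 libraries to a large degree. Across the 75 positions listed in both with the same motif, Pearson's r of the log2 counts was 0.79 and Spearman's rho of the counts was 0.76. These are correlations across sites that share a library, reads and base composition, and are not a test. The standard deviation of the log2 ratio over these sites was 0.75, while counting error alone would give 0.29. The 5 highest sites took 18.8% of the window's counts in undifferentiated cells and 25.1% in differentiated cells.

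Closely spaced sites can be covered by the same read. The 83 positions of the unit formed 70 runs of sites at most 16 bp apart, and 21 positions lay in the 8 runs with several sites. The CCGG sites at 39844993 and 39845004 had 62 counts each in undifferentiated cells, and 164 and 162 in differentiated cells. Those at 39847626 and 39847631 had 71 counts each, and 144 and 139. Other close pairs differed. The CCGG site at 39845599 and the CCTGG site at 39845614, 15 bp apart, had 50 and 119 counts in undifferentiated cells, and 115 and 112 in differentiated cells. The CCGG sites at 39846598 and 39846613, also 15 bp apart, had 70 and 48 counts, and 71 and 109. All 4 pairs were chosen after their values were seen. The median absolute difference in log2 ratio was 0.13 for 13 neighbouring pairs at most 16 bp apart, with a range of 0.02 to 1.29, and 0.38 for 13 pairs at 17 to 32 bp. It was 0.88 for 8 pairs at 33 to 40 bp. With the highest site of each run kept, the log2 ratio of the window over all motifs was 1.29.

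The share of non-CpG motifs was less clear. As listed, CCAGG and CCTGG sites held 21.8% of the window's counts in undifferentiated cells (95% Wilson interval 20.7% to 22.9%) and 19.4% in differentiated cells (18.7% to 20.1%). In the whole table their share was 18.8% and 26.2%. The direction within the window turned with 3 positions whose motif differed between the libraries. Without them the shares were 17.6% and 21.2%. As listed, CCAGG counts of the window were 434 and 1158, a ratio of 2.84, and CCTGG counts were 774 and 1251, a ratio of 1.72. Without the 3 positions the summed log2 ratio of both motifs was 1.46 and that of CCGG was 1.13, against 1.08 and 1.29 with them. Without the CCTGG site at 39846311 the log2 ratio of both motifs was 0.76.

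Those 3 positions all lay before Rn18s-rs5. Position 39843684 was entered as CCTGG with a full match and 94 counts for undifferentiated cells, and as CCGG with a soft-clipped alignment and 439 counts for differentiated cells. Position 39845769 changed in the same way, with 115 and 425 counts, and so did position 39845297, with 70 and 206 counts. They held 279 and 1070 counts in all. Only 50 positions of the whole table had a motif that differed between the libraries, and at all 50 the alignment was a full match in 1 library only.

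The alignment type itself thus differed between the libraries in the unit. In the undifferentiated library 1 of 80 listed sites of the window was soft-clipped, with 0.23% of the counts (95% Wilson interval 0.14% to 0.40%). In the differentiated library 5 of 82 were soft-clipped, with 9.16% of the counts (8.67% to 9.68%). In the whole table, entries other than a full match held 1.89% and 1.79% of the counts. All soft-clipped entries of the window lay before Rn18s-rs5. In the flank no listed entry was soft-clipped. With full-match entries only, the window's ratio over all motifs was 2.17 in place of 2.38. Its size therefore moved with the soft-clipped entries, and its direction did not.

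A list of genes linked to ribosomal RNA synthesis, not limited to the RNA polymerase I machinery, was examined by the CCGG counts over the annotated gene body. Of 20 genes on this list, 16 had at least 50 summed counts. The exact binomial test, adjusted over 16531 gene bodies, called 8 of the 16 higher in the differentiated library, against 26.4% of all gene bodies, and 0 lower, against 15.4%. The 8 include Baz2a, Fbl and Top1, so they are not a count of polymerase genes. The median log2 ratio was 0.33 over the 16 genes and 0.06 over all. With the median ratio of CCGG sites as the scale, 4 were called higher and 1 lower, against 12.5% and 29.9% of all gene bodies. With the divisors behind the deposited RPM column the numbers were again 4 and 1, against 8.72% and 38.4%, and with all listed counts 4 and 1, against 13.7% and 27.7%. Without the 1000 highest CCGG sites in the total they were 7 and 0, against 22.4% and 18.4%. The median-ratio scaling shifts every log2 ratio by -0.16, and the RPM divisors shift it by -0.23.

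Taf1c, a subunit of the selectivity factor that recruits RNA polymerase I, had 431 and 730 counts, a ratio of 1.80. Baz2a encodes a subunit of the nucleolar remodelling complex that silences ribosomal RNA genes, and had 197 and 310 counts, a ratio of 1.67. Znrd1, a small polymerase subunit, rested on 2 listed sites with 18 and 51 counts. These 3 were at least 1.5-fold higher, against 8.77% of all gene bodies, and they and the polymerase subunit gene Polr1e were called under every scaling run. Ubtf, which encodes the factor that binds along active ribosomal RNA genes, had 71 and 97 counts, a ratio of 1.45, and was called with the CCGG totals only. Polr1a, the largest polymerase subunit, had 630 and 623 counts and was not called with the CCGG totals. These gene bodies are single loci, and their ratios were below that of the ribosomal RNA window except at Znrd1.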

How the data were processed

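MethylRAD data of 2 F9 libraries were used, 1 undifferentiated and 1 differentiated, grouped by the labelled cell state. The deposited counts are reads per site in whole numbers, per the series' design text and the values. The column the authors headed RPM was read as a score, since its values sum to far more than 1000000, and served only through its divisors as an alternative scaling. Bowtie2 2.3.3, FastQC 0.11.3 and the build GRCm38 are named in the submitters' processing notes. How reads that match several places were placed, and how motif and alignment type were set, is not given in the sources used here.

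The tables hold 20550450 and 21291239 counts. Libraries were joined by chromosome and position. An unlisted site was given 4 counts, and positions that then reached 10 summed counts were tested with an exact two-sided binomial test and Benjamini-Hochberg adjustment, after a test on simulated data. Ratios have 95% Clopper-Pearson intervals. Gene positions are those of RefSeq for GRCm38.p6. Computations ran in Python 3.11.15 with scipy 1.17.1, pandas 2.3.3 and numpy 2.4.6.

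The window, gene list and naming rule were chosen with earlier results of these data known. Named sites were the 10 of highest summed count, the 3 largest and 3 smallest ratios with at least 20 counts, those next to annotated borders, up to 5 soft-clipped ones and the 3 highest of the flank. Other named sites were chosen after their values were seen.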

Additional observations from a re-analysis of the deposited data

How the results depend on the processing

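No paired analysis was possible because each group has 1 library, and no library could be left out. The alternatives on positions with differing motifs, all those for the ratio over all motifs and the one giving unlisted flank sites 4 counts were chosen after seeing the data. No ratio of the window reversed under the alternatives run, and 29 of the 57 alternative values stayed within the counting interval of the reported value or, for numbers of sites, within 1.5 times of it. The log2 ratio over all motifs, 1.25, was 1.11 with all listed counts, 1.09 with the median ratio of CCGG sites, 1.02 with the RPM divisors, 1.12 with full-match entries only and 1.19 without positions of differing motif. In the same order the CCGG ratio, 1.29, was 1.16, 1.14, 1.07, 1.13 and 1.13. The CCAGG and CCTGG ratio, 1.08, was 0.94 with all listed counts, 0.46 with the total of these motifs, 0.86 with the RPM divisors, 0.76 without its highest site and 1.46 without positions of differing motif. The share of these motifs, 21.8% and 19.4%, was 18.6% and 17.7% without sites at most 16 bp from a CCGG site and 17.6% and 21.2% without positions of differing motif. It was 20.8% in the differentiated library with full-match entries only. Between 46 and 60 sites were called higher, and 1 site was called lower with the RPM divisors. With 4 counts for unlisted sites the CCAGG and CCTGG log2 ratio of the flank, 0.77, was 0.21. The number of sites per kb, 140.4 and 110.8 times that of the flank within 500 kb, was 94.1 and 86.3 times that within 100 kb and 91.4 and 85.9 times that within 1000 kb. The median count per site in the differentiated library, 13.1 times that of the flank, was 9.29 times with either other flank.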

Other observations

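The genes of 5S ribosomal RNA, the component that RNA polymerase III transcribes, lie in a tandem array on chromosome 8. The array of 41 annotated genes from position 123538784 to 123622046 was looked at after the values of the window on chromosome 17 were known. It listed 1 CCGG site with 15 counts in the undifferentiated library and none in the differentiated library, and 1 CCAGG or CCTGG site with 6 counts in the differentiated library. Over 83.3 kb this is far below the counts of the 45S window. How the deposited counts treat reads that match several copies was not tested.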
